A study of Mus musculus with 24 samples.

Results

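The 10 CC chemokines described here are Ccl2, Ccl3, Ccl4, Ccl5, Ccl7, Ccl8, Ccl11, Ccl12, Ccl20 and Ccl21a. They were taken from the array by gene name, with the probe of the highest mean signal standing for a gene, and they are 10 of the 22065 genes or transcripts tested. Their choice as a set was made with earlier results of these data known. All 10 were well above background on all 24 arrays, so the filter on dim probes did not choose among them.

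Whisker (vibrissa) follicles of postnatal day 9 B6C3F1 mice were kept in culture for 24 h in RPMI 1640 medium with 10% fetal bovine serum. The compounds, forms of vitamins or provitamins, were added alone or together: panthenyl ethyl ether (PEE, 0.3%), an ether of panthenol, pyridoxine hydrochloride (PH, 0.015%), a form of vitamin B6, and tocopherol acetate (TA, 0.024%), an ester of vitamin E. The groups were PEE, PH, TA, PEE-PH, PEE-TA, PH-TA, PEE-PH-TA and the control, which is labelled as control with no further description, and each had 3 arrays. Each array measured RNA pooled from 10 follicles, and there were 3 independent experiments. All groups shared the mouse strain, age, serum and culture time, and follicles taken before culture were not analysed here.

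Chemokines are small secreted proteins that draw leukocytes along a gradient by acting on receptors coupled to G proteins, and the CC family is named for a pair of neighbouring cysteines. In skin they are made by keratinocytes, fibroblasts, endothelial cells and resident immune cells. Ccl2, Ccl7 and the mouse gene Ccl12 encode ligands of CCR2 that attract monocytes, mouse Ccl8 encodes a ligand of CCR8, and Ccl11, called eotaxin, acts on CCR3 of eosinophils. Ccl3, Ccl4 and Ccl5 encode attractants of monocytes and T cells, Ccl20 the ligand of CCR6, and Ccl21a a ligand of CCR7, the receptor that leads dendritic cells and T cells to lymph nodes.

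Values are log2 of the signal of a probe minus log2 of the 75th percentile of its array, so 0 means the 75th percentile, and levels of different probes are not compared. The raw 75th percentile itself differed between groups. It was 142 to 147 in PEE, 180 to 192 in PH, 175 to 200 in TA, 199 to 217 in PEE-PH, 177 to 200 in PEE-TA, 203 to 248 in PH-TA, 175 to 187 in PEE-PH-TA and 155 to 190 in control. All 8 markers of the outer root sheath and all 12 of the hair matrix, shaft and inner root sheath were above background on all 24 arrays, as the tissue label says. RNA of whole follicles was measured, so fewer cells of a type and less RNA per cell cannot be told apart in any of the results.

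On the mouse build mm9 (NCBI37), which the array's probe positions use, 8 of the 10 probes lie on chromosome 11 in a pair of groups. Ccl2 (NM_011333), Ccl7 (NM_013654), Ccl11 (NM_011330), Ccl12 (NM_011331) and Ccl8 (NM_021443) follow each other on the plus strand. Their probes span 79.5 kb, from chr11:81850650-81850709 for Ccl2 to chr11:81930108-81930167 for Ccl8. Ccl5 (NM_013653, chr11:83339296-83339355), Ccl3 (NM_011337, chr11:83461358-83461417) and Ccl4 (NM_013652, chr11:83478052-83478111) form the other group, 1409 kb further on. Ccl20 (NM_016960) is on chromosome 1 at 83115500 to 83115559, and Ccl21a (NM_011124) on chromosome 4 at 42231835 to 42231894. The Ccl21a probe lists accessions of both Ccl21a and its near-identical copy Ccl21b, so these copies cannot be told apart with it. Each probe has 60 bases, and exon, intron or UTR positions were not annotated here.

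Promoter windows of RefSeq (GRCm38.p6), the 250 bases before the annotated start, were found for 5 of the 10 genes: Ccl3, Ccl8, Ccl12, Ccl20 and Ccl21a. The windows of Ccl12 and Ccl8, neighbours on chromosome 11, and that of Ccl20, the only window of the 5 with an NF-kB-like match, are given. Both strands were searched for an NF-kB-like motif (3 G, 5 of any base and 2 C), an interferon response element-like motif (G and 3 A, 2 of any base, G and 3 A), the AP-1-like TGANTCA and the TATA-like TATAAAA, the last of which was added after the windows had been read. Capitals mark the matches.
Ccl12, chr11:82101595-82101844, plus strand: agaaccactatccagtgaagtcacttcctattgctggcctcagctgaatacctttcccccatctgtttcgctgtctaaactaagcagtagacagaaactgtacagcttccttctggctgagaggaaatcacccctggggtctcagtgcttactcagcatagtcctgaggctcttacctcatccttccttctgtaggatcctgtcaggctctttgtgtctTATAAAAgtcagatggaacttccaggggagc
Ccl8, chr11:82114935-82115184, plus strand: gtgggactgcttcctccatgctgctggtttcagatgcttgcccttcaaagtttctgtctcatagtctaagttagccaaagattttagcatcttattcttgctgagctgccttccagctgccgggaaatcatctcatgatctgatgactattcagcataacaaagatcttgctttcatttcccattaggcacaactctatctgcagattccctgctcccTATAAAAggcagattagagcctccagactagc
Ccl20, chr1:83116516-83116765, plus strand: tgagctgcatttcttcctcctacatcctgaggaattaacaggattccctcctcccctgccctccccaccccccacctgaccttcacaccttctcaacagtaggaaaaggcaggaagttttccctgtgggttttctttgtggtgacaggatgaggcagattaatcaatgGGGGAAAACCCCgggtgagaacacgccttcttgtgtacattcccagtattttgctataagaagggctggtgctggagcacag

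Ccl12 and Ccl8 each hold 1 TATAAAA, at positions -31 and -32 from the start, a string found in 4.98% of 32851 RefSeq windows of the same length. The Ccl20 run is 3 overlapping NF-kB-like matches on 1 stretch, and 45.8% of all windows have at least 1 such match. None of the 5 windows held the interferon response element-like or the AP-1-like motif, which were in 2.98% and 6.75% of all windows. A match of letters is a description and not a binding site.

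All 10 CC chemokines tended to be lower in treated follicles, and none rose past the threshold in any comparison. Of the 70 estimates in the 7 comparisons with control, 69 were below 0. The lowest levels were in mixtures with PEE: the lowest group mean was in PEE-PH for 6 genes, in PEE-TA for 2 and in PEE-PH-TA for 2, and the highest was in control for 9 and in PH for 1. The 7 comparisons share the same 3 control arrays and are therefore not independent of each other.

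**Figure D1:**
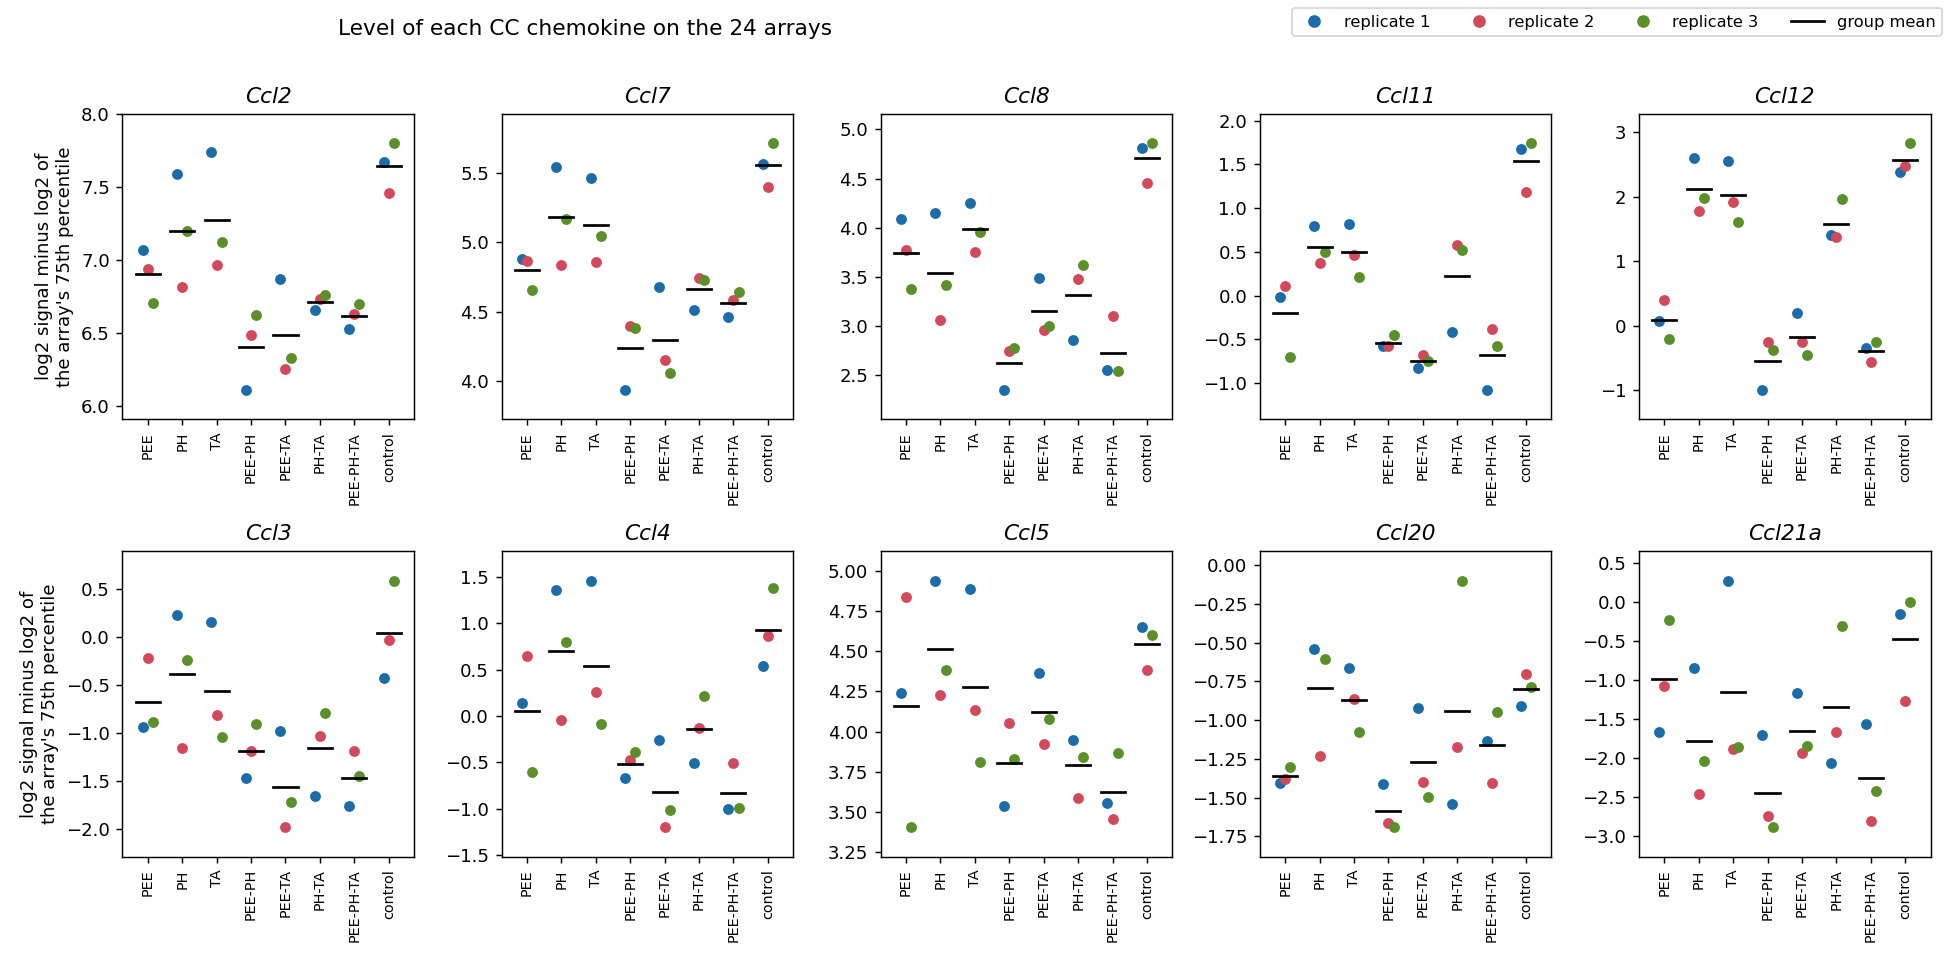
Log2 signal relative to the array's 75th percentile (vertical axis, scale set per gene) of each CC chemokine in the 7 treated groups and control. Points are arrays coloured by replicate number, bars are group means of 3 arrays, and in the Ccl12 panel all 12 arrays with PEE lie at or below 0.40 and all 12 without it at or above 1.37.

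In a limma model with 1 mean per group and p-values adjusted by the Benjamini-Hochberg method over all 22065 genes, a gene was called at an adjusted p under 0.05. With single compounds, 5 of the 10 fell in PEE against control (Ccl2, Ccl7, Ccl8, Ccl11 and Ccl12), where 5.69% of all genes fell. In PH 2 fell (Ccl8 and Ccl11, against 3.65% of all genes) and in TA 1 fell (Ccl11, against 1.43%). With pairs, 9 fell in PEE-PH (all but Ccl5), where 20.9% of all genes fell, 7 in PEE-TA (all but Ccl5, Ccl20 and Ccl21a), against 15.3%, and 6 in PH-TA (Ccl2, Ccl3, Ccl7, Ccl8, Ccl11 and Ccl12), against 17.5%. In PEE-PH-TA 8 fell (all but Ccl20 and Ccl21a), while 8.72% of all genes fell and 7.78% rose.

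The median log2 change of the 10 genes was -0.75 in PEE, -0.44 in PH, -0.49 in TA, -1.38 in PEE-PH, -1.41 in PEE-TA, -0.96 in PH-TA and -1.64 in PEE-PH-TA. Over all genes tested the median was 0.02 in PEE, -0.02 in PH, -0.02 in TA, -0.06 in PEE-PH, -0.05 in PEE-TA, -0.06 in PH-TA and -0.0017 in PEE-PH-TA. In PEE-PH, and again in PEE-PH-TA, the 3 treated arrays lay below the 3 control arrays for all 10 genes, which held for 27.8% and 16.7% of all genes. With the log2 of the array's 75th percentile as a covariate, an alternative chosen after the data were seen, the numbers called were 4 in PEE, 0 in PH, 0 in TA, 5 in PEE-PH, 7 in PEE-TA, 0 in PH-TA and 7 in PEE-PH-TA. Beside all calls in PH, TA and PH-TA, it ended those of Ccl2 in PEE, of Ccl3, Ccl4, Ccl20 and Ccl21a in PEE-PH, and of Ccl5 in PEE-PH-TA.

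Leaving out a replicate number removes 1 array of every group. Of the 38 calls against control, 17 held without each of the 3 numbers and 21 ended without at least 1 of them (limma adjusted p = 0.0551 to 0.438). Those that held were Ccl12 and Ccl11 in all 4 groups with PEE, Ccl8 in PEE-PH, PEE-TA, PH-TA and PEE-PH-TA, Ccl7 in PEE-PH, PEE-TA and PH-TA, Ccl11 in PH-TA, and Ccl2 in PEE-PH. All calls of Ccl3, Ccl4, Ccl5, Ccl20 and Ccl21a against control were among those that ended.

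**Figure D2:**
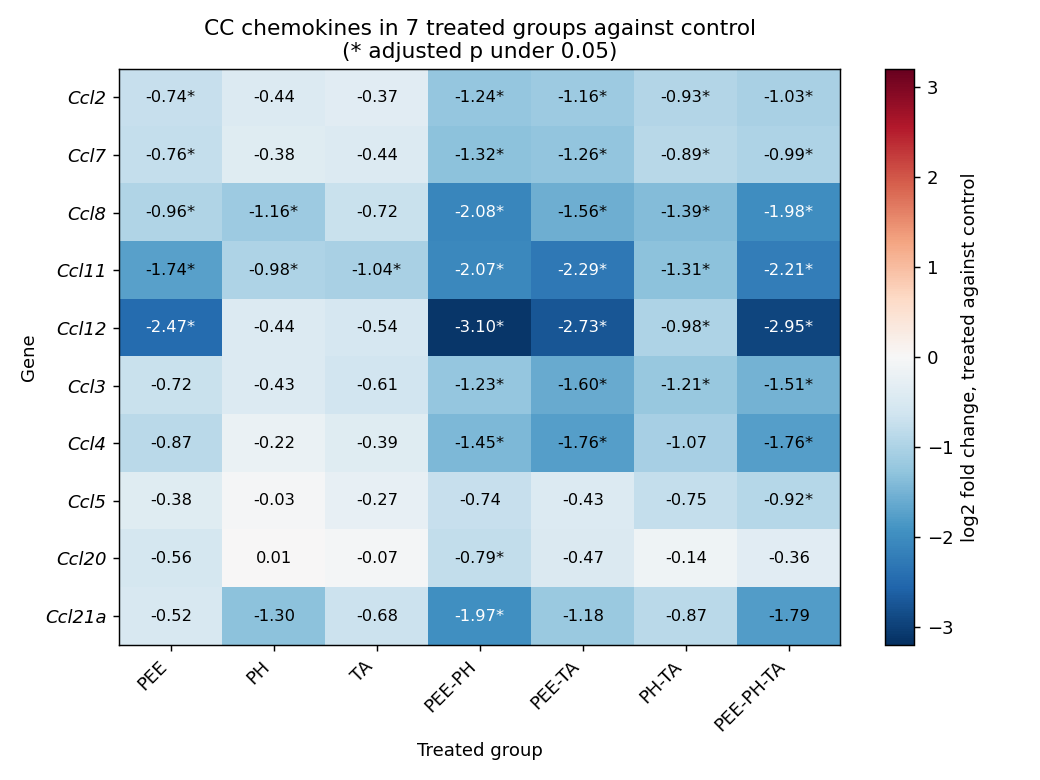
Log2 fold change of the 10 CC chemokines (rows) in the 7 treated groups (columns) against control, 3 arrays each, with an asterisk where the limma adjusted p was under 0.05. The Ccl12 row is darkest in the 4 columns with PEE, from -2.47 to -3.10, and Ccl11 is the only gene with an asterisk in all 7 columns.

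Ccl12, a monocyte attractant of the mouse, had the largest change of the 10 in each of the 4 groups with PEE. Its level was 0.07, 0.40 and -0.20 in PEE, -0.99, -0.25 and -0.38 in PEE-PH, 0.20, -0.26 and -0.45 in PEE-TA and -0.35, -0.57 and -0.25 in PEE-PH-TA. Without PEE it was 2.60, 1.78 and 1.97 in PH, 2.55, 1.91 and 1.60 in TA, 1.40, 1.37 and 1.96 in PH-TA and 2.38, 2.48 and 2.82 in control. Every array with PEE was below every array without it, which held for 0.68% of all genes and for no other of the 10 chemokines. Against control the log2 change was -2.47 ± 0.27 (SE, adjusted p = 8.8e-06) in PEE, -3.10 ± 0.27 (SE, adjusted p = 4.23e-07) in PEE-PH, -2.73 ± 0.27 (SE, adjusted p = 3.25e-06) in PEE-TA and -2.95 ± 0.27 (SE, adjusted p = 1.48e-06) in PEE-PH-TA (limma). These are 5.55-fold, 8.59-fold, 6.65-fold and 7.73-fold lower levels.

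Without PEE the change of Ccl12 was smaller. It was -0.98 ± 0.27 (SE, adjusted p = 0.0108) in PH-TA, and missed the threshold at -0.44 ± 0.27 (SE, adjusted p = 0.373) in PH and -0.54 ± 0.27 (SE, adjusted p = 0.314) in TA (limma), with 95% intervals of -1.01 to 0.12 and -1.10 to 0.02. The PH-TA call ended without control replicate 3 or PH-TA replicate 1 (adjusted p = 0.0508 to 0.0551). In the order of group means, only the step between PH-TA and PEE separated neighbours whose arrays did not overlap.

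Ccl11, the eotaxin gene next to Ccl12, was the only member called in all 7 comparisons with control. Its level was -0.01, 0.11 and -0.70 in PEE, -0.58, -0.58 and -0.45 in PEE-PH, -0.83, -0.68 and -0.75 in PEE-TA and -1.08, -0.38 and -0.57 in PEE-PH-TA. It was 0.80, 0.37 and 0.50 in PH, 0.82, 0.47 and 0.21 in TA, -0.42, 0.58 and 0.52 in PH-TA and 1.68, 1.19 and 1.74 in control. The 3 control arrays were above all 21 treated arrays, and no other neighbours in the order of groups were separated. The log2 change was -1.74 ± 0.26 (SE, adjusted p = 0.00026) in PEE, -2.07 ± 0.26 (SE, adjusted p = 1.22e-05) in PEE-PH, -2.29 ± 0.26 (SE, adjusted p = 1.14e-05) in PEE-TA and -2.21 ± 0.26 (SE, adjusted p = 1.69e-05) in PEE-PH-TA (limma). It was -0.98 ± 0.26 (SE, adjusted p = 0.0342) in PH, -1.04 ± 0.26 (SE, adjusted p = 0.0441) in TA and -1.31 ± 0.26 (SE, adjusted p = 0.0014) in PH-TA (limma).

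The smaller Ccl11 calls rested on few arrays. That in PH ended without control replicate 1, control replicate 3, PH replicate 2 or PH replicate 3 (adjusted p = 0.0861 to 0.155), and that in TA without any 1 of the 6 arrays compared (adjusted p = 0.0544 to 0.221). With the replicate number as a block the TA call also ended (adjusted p = 0.0529), and with only the groups compared both did (adjusted p = 0.0674 in PH and 0.0902 in TA). The 4 calls with PEE, and that in PH-TA, held without each array in turn.

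Ccl8, whose product acts on CCR8 in mice, lies on the other side of Ccl12. Its level was 4.09, 3.77 and 3.37 in PEE, 2.35, 2.75 and 2.78 in PEE-PH, 3.49, 2.96 and 3.01 in PEE-TA and 2.55, 3.10 and 2.54 in PEE-PH-TA. It was 4.15, 3.07 and 3.41 in PH, 4.25, 3.75 and 3.96 in TA, 2.86, 3.48 and 3.63 in PH-TA and 4.81, 4.45 and 4.86 in control. The control arrays were again above all treated ones, and the lowest arrays were in PEE-PH and PEE-PH-TA. The log2 change was -0.96 ± 0.27 (SE, adjusted p = 0.0272) in PEE, -2.08 ± 0.27 (SE, adjusted p = 1.83e-05) in PEE-PH, -1.56 ± 0.27 (SE, adjusted p = 0.000529) in PEE-TA and -1.98 ± 0.27 (SE, adjusted p = 7.75e-05) in PEE-PH-TA (limma). It was -1.16 ± 0.27 (SE, adjusted p = 0.0179) in PH and -1.39 ± 0.27 (SE, adjusted p = 0.00131) in PH-TA, while -0.72 ± 0.27 (SE, adjusted p = 0.172) in TA missed the threshold (limma).

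Among the Ccl8 calls, that in PEE ended without control replicate 1, control replicate 3, PEE replicate 2 or PEE replicate 3 (adjusted p = 0.0684 to 0.121), and that in PH without control replicate 1, control replicate 3, PH replicate 2 or PH replicate 3 (adjusted p = 0.0541 to 0.123). Both calls also ended when only the groups compared were fitted (adjusted p = 0.056 and 0.112).

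Ccl2, the main CCR2 ligand, and Ccl7, its neighbour and a further CCR2 ligand, followed each other closely. The level of Ccl2 was 7.07, 6.94 and 6.71 in PEE, 6.11, 6.49 and 6.62 in PEE-PH, 6.87, 6.26 and 6.33 in PEE-TA and 6.53, 6.63 and 6.70 in PEE-PH-TA. It was 7.59, 6.82 and 7.20 in PH, 7.74, 6.97 and 7.12 in TA, 6.66, 6.73 and 6.76 in PH-TA and 7.67, 7.46 and 7.80 in control. The control arrays overlapped those of PH and TA and were above those of the other 5 groups. Ccl2 changed by -0.74 ± 0.21 (SE, adjusted p = 0.0286) in PEE, -1.24 ± 0.21 (SE, adjusted p = 0.000206) in PEE-PH, -1.16 ± 0.21 (SE, adjusted p = 0.000726) in PEE-TA, -0.93 ± 0.21 (SE, adjusted p = 0.00339) in PH-TA and -1.03 ± 0.21 (SE, adjusted p = 0.00226) in PEE-PH-TA on the log2 scale (limma). The estimates in PH, -0.44 ± 0.21 (SE, adjusted p = 0.237), and TA, -0.37 ± 0.21 (SE, adjusted p = 0.389), did not pass (limma). The PEE call of Ccl2 ended without control replicate 1, control replicate 3, PEE replicate 2 or PEE replicate 3 (adjusted p = 0.0687 to 0.11).

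Ccl7 was at 4.88, 4.87 and 4.65 in PEE, 3.94, 4.40 and 4.39 in PEE-PH, 4.68, 4.15 and 4.06 in PEE-TA and 4.46, 4.59 and 4.64 in PEE-PH-TA. It was at 5.54, 4.84 and 5.16 in PH, 5.47, 4.86 and 5.04 in TA, 4.51, 4.75 and 4.73 in PH-TA and 5.56, 5.40 and 5.71 in control. The same groups overlapped the control as for Ccl2. Its log2 change was -0.76 ± 0.19 (SE, adjusted p = 0.0146) in PEE, -1.32 ± 0.19 (SE, adjusted p = 4.75e-05) in PEE-PH, -1.26 ± 0.19 (SE, adjusted p = 0.000169) in PEE-TA, -0.89 ± 0.19 (SE, adjusted p = 0.00226) in PH-TA and -0.99 ± 0.19 (SE, adjusted p = 0.00138) in PEE-PH-TA (limma). It was -0.38 ± 0.19 (SE, adjusted p = 0.269) in PH and -0.44 ± 0.19 (SE, adjusted p = 0.242) in TA, neither of which passed (limma). The PEE call of Ccl7 ended without control replicate 3 or PEE replicate 3 (adjusted p = 0.0555 to 0.0629).

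Ccl3 and Ccl4 encode the macrophage inflammatory proteins 1 alpha and beta, which attract monocytes and T cells. The level of Ccl3 was -0.94, -0.22 and -0.89 in PEE, -1.47, -1.19 and -0.91 in PEE-PH, -0.98, -1.98 and -1.73 in PEE-TA and -1.76, -1.19 and -1.45 in PEE-PH-TA. It was 0.23, -1.16 and -0.24 in PH, 0.16, -0.81 and -1.04 in TA, -1.66, -1.04 and -0.79 in PH-TA and -0.43, -0.03 and 0.59 in control. The single-compound groups overlapped the control, while the pairs and the triple mixture lay below it. Ccl3 fell in PEE-PH (-1.23 ± 0.38, adjusted p = 0.0172), PEE-TA (-1.60 ± 0.38, adjusted p = 0.00542), PH-TA (-1.21 ± 0.38, adjusted p = 0.0238) and PEE-PH-TA (-1.51 ± 0.38, adjusted p = 0.0105; limma). The single compounds gave -0.72 ± 0.38 (SE, adjusted p = 0.25) in PEE, -0.43 ± 0.38 (SE, adjusted p = 0.571) in PH and -0.61 ± 0.38 (SE, adjusted p = 0.448) in TA (limma).

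The Ccl3 call in PEE-PH ended without control replicate 3 or PEE-PH replicate 1 (adjusted p = 0.07 to 0.0939), that in PH-TA without control replicate 3 or PH-TA replicate 1 (adjusted p = 0.121 to 0.122), and that in PEE-PH-TA without control replicate 3 (adjusted p = 0.0653).

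Ccl4 was at 0.14, 0.65 and -0.61 in PEE, -0.67, -0.48 and -0.39 in PEE-PH, -0.26, -1.20 and -1.02 in PEE-TA and -1.01, -0.50 and -0.99 in PEE-PH-TA. It was at 1.36, -0.04 and 0.80 in PH, 1.46, 0.26 and -0.08 in TA, -0.50, -0.13 and 0.22 in PH-TA and 0.54, 0.87 and 1.38 in control. The arrays of PEE, PH and TA overlapped those of control, and the pairs and the triple mixture lay below them. Ccl4 fell in PEE-PH (-1.45 ± 0.41, adjusted p = 0.00978), PEE-TA (-1.76 ± 0.41, adjusted p = 0.00447) and PEE-PH-TA (-1.76 ± 0.41, adjusted p = 0.0055; limma), and PH-TA just missed the threshold at -1.07 ± 0.41 (SE, adjusted p = 0.0547). PEE, at -0.87 ± 0.41 (SE, adjusted p = 0.187), PH, at -0.22 ± 0.41 (SE, adjusted p = 0.809), and TA, at -0.39 ± 0.41 (SE, adjusted p = 0.694), did not pass (limma). Another Ccl4 probe gave -0.97 ± 0.42 in PEE (adjusted p over all probes = 0.162), -1.50 ± 0.42 in PEE-PH (adjusted p = 0.00969), -1.15 ± 0.42 in PH-TA (adjusted p = 0.0473) and -1.85 ± 0.42 in PEE-PH-TA (adjusted p = 0.0054; limma). The PEE-PH call ended without control replicate 3 (adjusted p = 0.0528).

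Ccl5, called RANTES, attracts T cells and monocytes. Its levels ran from 3.41 to 4.84 in PEE, 4.23 to 4.94 in PH, 3.81 to 4.89 in TA, 3.53 to 4.05 in PEE-PH, 3.92 to 4.36 in PEE-TA, 3.58 to 3.95 in PH-TA, 3.46 to 3.86 in PEE-PH-TA and 4.38 to 4.65 in control. Within PEE the 3 arrays spread more widely than in any other group. It fell in PEE-PH-TA, at -0.92 ± 0.30 (SE, adjusted p = 0.0402) by limma, a call that ended without control replicate 1, control replicate 2, control replicate 3, PEE-PH-TA replicate 1 or PEE-PH-TA replicate 2 (adjusted p = 0.0632 to 0.117). PEE-PH, at -0.74 ± 0.30 (SE, adjusted p = 0.0592), and PH-TA, at -0.75 ± 0.30 (SE, adjusted p = 0.0625), missed the threshold, and the other 4 comparisons lay between -0.43 and -0.03 (limma).

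Ccl20, a product of keratinocytes that draws CCR6-bearing cells, passed in 1 comparison with control. Its level was -1.41, -1.38 and -1.30 in PEE, -1.41, -1.67 and -1.69 in PEE-PH, -0.92, -1.40 and -1.50 in PEE-TA and -1.13, -1.40 and -0.95 in PEE-PH-TA. It was -0.54, -1.23 and -0.61 in PH, -0.66, -0.86 and -1.07 in TA, -1.54, -1.18 and -0.10 in PH-TA and -0.91, -0.70 and -0.79 in control. The 4 groups with PEE had the 4 lowest means, and replicate 3 of PH-TA was the highest array of all. The comparison that passed was PEE-PH, at -0.79 ± 0.26 (SE, adjusted p = 0.0262) by limma, and the call ended without control replicate 2, control replicate 3, PEE-PH replicate 2 or PEE-PH replicate 3 (adjusted p = 0.0648 to 0.0753). The other 6 comparisons gave -0.56 to 0.01 and did not pass.

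Ccl21a spread most among replicates. Its levels ran from -1.67 to -0.24 in PEE, -2.46 to -0.85 in PH, -1.89 to 0.27 in TA, -2.89 to -1.71 in PEE-PH, -1.94 to -1.18 in PEE-TA, -2.07 to -0.31 in PH-TA, -2.81 to -1.57 in PEE-PH-TA and -1.28 to -0.00056 in control. It fell in PEE-PH, at -1.97 ± 0.61 (SE, adjusted p = 0.0178) by limma, a call that ended without control replicate 1, control replicate 3, PEE-PH replicate 2 or PEE-PH replicate 3 (adjusted p = 0.0562 to 0.0724). In PEE-PH-TA the estimate of -1.79 ± 0.61 (SE, adjusted p = 0.0529) missed the threshold (limma), and with the replicate number as a block it passed (adjusted p = 0.0308). A separate probe named for Ccl21b gave estimates from -0.40 to 0.04 in the 7 comparisons with control, none of which passed. Like the Ccl21a probe it lists 4 accessions, and which copies it measures was not tested.

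Averaged over the 4 pairs of groups that differ by 1 compound, PEE lowered 8 of the 10 genes, where 14.2% of all genes fell and 12.8% rose, with a median of -0.68 for the 10 and 0.01 for all genes. The average effect of PEE was -2.32 ± 0.13 (SE, adjusted p = 3.18e-10) on Ccl12, -1.25 ± 0.13 (SE, adjusted p = 8.61e-07) on Ccl11, -1.04 ± 0.20 (SE, adjusted p = 0.000733) on Ccl4, -0.83 ± 0.13 (SE, adjusted p = 0.00013) on Ccl8 and -0.71 ± 0.19 (SE, adjusted p = 0.0092) on Ccl3 (limma, 12 arrays against 12). It was -0.65 ± 0.09 (SE, adjusted p = 3.72e-05) on Ccl7, -0.61 ± 0.10 (SE, adjusted p = 0.000225) on Ccl2 and -0.50 ± 0.13 (SE, adjusted p = 0.00858) on Ccl20 (limma). Ccl5, at -0.35 ± 0.15 (SE, adjusted p = 0.0872), and Ccl21a, at -0.65 ± 0.31 (SE, adjusted p = 0.131), did not pass (limma). Ccl12 ranked 2 among all 22065 genes ordered by how far the average effect of PEE lowered them. In the chromosome 11 group its average decrease was 5-fold, against 2.37-fold for Ccl11 on one side of it and 1.77-fold for Ccl8 on the other. The 8 calls held without each array in turn and with the array signal as a covariate. Within the 3 slides, each holding 1 array per group, the Ccl12 effect was -2.50, -2.05 and -2.41, and all 10 genes had a negative estimate within every slide. Without a whole slide the Ccl20 call ended when replicate 2 was left out (adjusted p = 0.102) and the Ccl3 call when replicate 3 was (0.124).

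PH on average lowered 6 of the 10 genes, where 17.4% of all genes fell, with a median of -0.37 for the 10 and -0.02 for all genes. Its effect was -0.84 ± 0.13 (SE, adjusted p = 0.000234) on Ccl8, -0.89 ± 0.31 (SE, adjusted p = 0.0342) on Ccl21a, -0.43 ± 0.13 (SE, adjusted p = 0.0201) on Ccl12, -0.38 ± 0.13 (SE, adjusted p = 0.0321) on Ccl11, -0.34 ± 0.10 (SE, adjusted p = 0.0186) on Ccl2 and -0.28 ± 0.09 (SE, adjusted p = 0.0294) on Ccl7 (limma). The average PH and PEE effects on Ccl8 were decreases of 1.79-fold and 1.77-fold, and their difference was not tested. The Ccl11 call ended without control replicate 1, control replicate 3, PH replicate 2, PEE replicate 1, PEE replicate 2, TA replicate 1, PH-TA replicate 1, PEE-PH replicate 2 or PEE-PH-TA replicate 1 (adjusted p = 0.0503 to 0.0615). That of Ccl7 ended without control replicate 3, PH replicate 2, TA replicate 1, PH-TA replicate 1, PEE-TA replicate 1 or PEE-PH replicate 1 (adjusted p = 0.0545 to 0.0583). That of Ccl21a ended without control replicate 1, control replicate 3, PH replicate 2, PH replicate 3, PEE replicate 3, TA replicate 1, PH-TA replicate 1, PH-TA replicate 2, PEE-TA replicate 1, PEE-PH replicate 2, PEE-PH replicate 3, PEE-PH-TA replicate 2 or PEE-PH-TA replicate 3 (adjusted p = 0.0518 to 0.0665). Without a whole replicate number, the calls of Ccl2 (adjusted p = 0.0605 to 0.104) and Ccl7 (0.075 to 0.16) ended whichever number was left out. Those of Ccl12 (0.106 to 0.175) and Ccl11 (0.0935 to 0.309) ended without number 1 or 2, and that of Ccl21a (0.13 to 0.151) without 2 or 3, while that of Ccl8 held. With the array signal as a covariate none of the 6 passed, with adjusted p from 0.23 for Ccl8 to 0.85 for Ccl11.

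TA on average lowered 2 of the 10, where 5.2% of all genes fell, with a median of -0.30 for the 10 and -0.01 for all genes. Its effect was -0.63 ± 0.19 (SE, adjusted p = 0.0477) on Ccl3 and -0.52 ± 0.13 (SE, adjusted p = 0.0222) on Ccl11 (limma). The Ccl3 call ended without control replicate 2, control replicate 3, PH replicate 1, PH replicate 3, PEE replicate 1, PEE replicate 2, PEE replicate 3, TA replicate 2, TA replicate 3, PH-TA replicate 1, PH-TA replicate 2, PEE-TA replicate 2, PEE-TA replicate 3, PEE-PH replicate 2, PEE-PH replicate 3, PEE-PH-TA replicate 1, PEE-PH-TA replicate 2 or PEE-PH-TA replicate 3 (adjusted p = 0.0518 to 0.0946), and with the replicate number as a block (adjusted p = 0.0538). Without a whole replicate number both calls ended, whichever number was left out, with adjusted p from 0.0531 to 0.343 for Ccl3 and from 0.0953 to 0.164 for Ccl11. With the array signal as a covariate neither gene passed (adjusted p = 0.734 and 0.477).

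**Figure D3:**
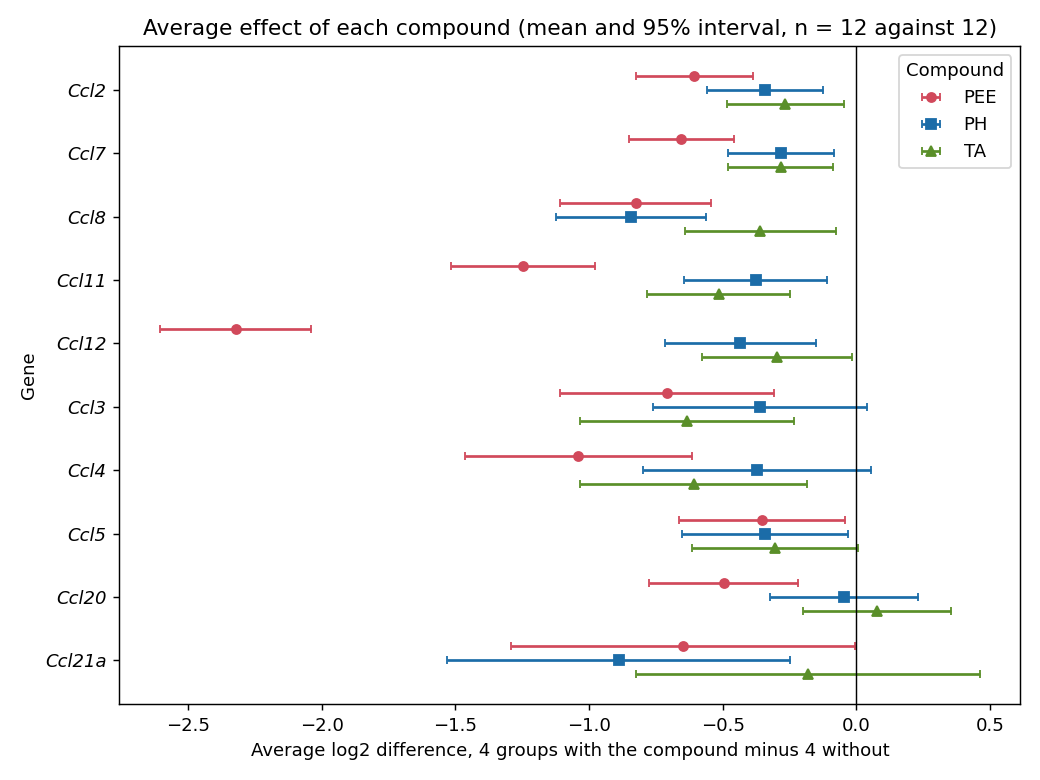
Average log2 effect of PEE (circles), PH (squares) and TA (triangles) on each CC chemokine, as the mean difference of the 4 groups with the compound minus the 4 without, with 95% intervals from limma. The PEE effect on Ccl12, -2.32, stands left of every other estimate, and the PH and PEE marks for Ccl8 lie side by side.

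PEE was also added on top of the other compounds. In PEE-PH against PH 5 genes fell, where 7.47% of all genes fell: Ccl12 (-2.66 ± 0.27, adjusted p = 5.49e-06), Ccl11 (-1.09 ± 0.26, adjusted p = 0.00907), Ccl7 (-0.94 ± 0.19, adjusted p = 0.00334), Ccl8 (-0.92 ± 0.27, adjusted p = 0.0311) and Ccl2 (-0.80 ± 0.21, adjusted p = 0.0175; limma). In PEE-TA against TA 5 fell, where 3.62% of all genes fell: Ccl12 (-2.19 ± 0.27, adjusted p = 4.41e-05), Ccl4 (-1.37 ± 0.41, adjusted p = 0.0493), Ccl11 (-1.25 ± 0.26, adjusted p = 0.00544), Ccl7 (-0.82 ± 0.19, adjusted p = 0.0118) and Ccl2 (-0.79 ± 0.21, adjusted p = 0.0269; limma). In PEE-PH-TA against PH-TA 2 fell, where 4.91% of all genes fell: Ccl12 (-1.97 ± 0.27, adjusted p = 0.000152) and Ccl11 (-0.90 ± 0.26, adjusted p = 0.0256; limma). Ccl2 and Ccl7 each differed there by -0.10, with 95% intervals of -0.53 to 0.34 and -0.49 to 0.30.

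Several of these calls depended on 1 array. In PEE-PH against PH that of Ccl2 ended without PH replicate 1, PH replicate 3 or PEE-PH replicate 1 (adjusted p = 0.0525 to 0.101), and that of Ccl8 without PH replicate 1, PH replicate 3, PEE-PH replicate 1 or PEE-PH replicate 2 (adjusted p = 0.057 to 0.162). In PEE-TA against TA that of Ccl2 ended without TA replicate 1, PEE-TA replicate 2 or PEE-TA replicate 3 (adjusted p = 0.113 to 0.146), that of Ccl4 without TA replicate 1, TA replicate 2, PEE-TA replicate 2 or PEE-TA replicate 3 (adjusted p = 0.0665 to 0.237), and that of Ccl7 without TA replicate 1, PEE-TA replicate 2 or PEE-TA replicate 3 (adjusted p = 0.0629 to 0.0739). In PEE-PH-TA against PH-TA that of Ccl11 ended without PH-TA replicate 2, PH-TA replicate 3 or PEE-PH-TA replicate 1 (adjusted p = 0.0792 to 0.118). The Ccl12 call held in all 3 comparisons. Without a whole replicate number only the Ccl12 calls held throughout. The Ccl11 call in PEE-PH against PH ended whichever number was left out (limma adjusted p = 0.0692 to 0.0827). So did that in PEE-PH-TA against PH-TA (0.0595 to 0.215). In PEE-TA against TA the Ccl11 call ended without number 2 or 3 (0.0658 to 0.107). The Ccl7 call in PEE-PH against PH ended without number 3 (0.0637). With only the groups compared fitted, Ccl12 and Ccl11 stayed called in PEE-PH against PH and in PEE-TA against TA, and Ccl12 in PEE-PH-TA against PH-TA. With the array signal as a covariate the calls of Ccl2, Ccl8 and Ccl11 in PEE-PH against PH, Ccl4 in PEE-TA against TA and Ccl11 in PEE-PH-TA against PH-TA ended, and with the replicate number as a block that of Ccl4 in PEE-TA against TA did (adjusted p = 0.0583).

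The difference between the PEE effect with PH and TA present and that of PEE alone was tested after the values had been seen. None of the 10 genes passed, nor did any of the 22065 (0% of all genes, limma), with differences of 0.64 for Ccl2 (unadjusted p = 0.0426), 0.66 for Ccl7 (0.0238) and 0.83 for Ccl11 (0.0333). Whether the mixtures departed from the sum of their single compounds was tested too. None of the 10 genes passed for PEE-PH (0% of all genes), PEE-TA (0.068%), PH-TA (0.0136%) or PEE-PH-TA (0%), by limma. At an unadjusted p under 0.05 there were 0, 0, 0 and 1 of the 10, and 2473, 1844, 1475 and 1307 of all genes. The 1 gene was Ccl11 in the triple mixture, named after its value was seen, whose level stood above the sum by 1.54 on the log2 scale (adjusted p = 0.765, limma).

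The 10 genes moved together over the arrays to differing degrees. Over the 24 arrays, which share groups and slides, the 45 pairs had a Pearson r between 0.40 and 0.99 with a median of 0.73. With the group means taken out it lay between 0.23 and 0.97 with a median of 0.59. The pairs most alike were neighbours on chromosome 11, Ccl2 with Ccl7 (r = 0.99) and Ccl3 with Ccl4 (r = 0.96). The pair of lowest r was Ccl5 with Ccl20.

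Ccl12 stood apart from Ccl2 by whether PEE was present, a pair chosen after the values had been seen. Its log2 level minus that of Ccl2 lay between -7.20 and -6.51 on the 12 arrays with PEE, and between -5.52 and -4.80 on the 12 without. The ranges did not overlap, and the mean difference was -1.72. An exact two-sided permutation of PEE within the 4 backgrounds gave p = 1.25e-05, the smallest that the 160000 arrangements can give. Since the pair was picked for this pattern, that p describes these arrays and is no independent test.

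**Figure D4:**
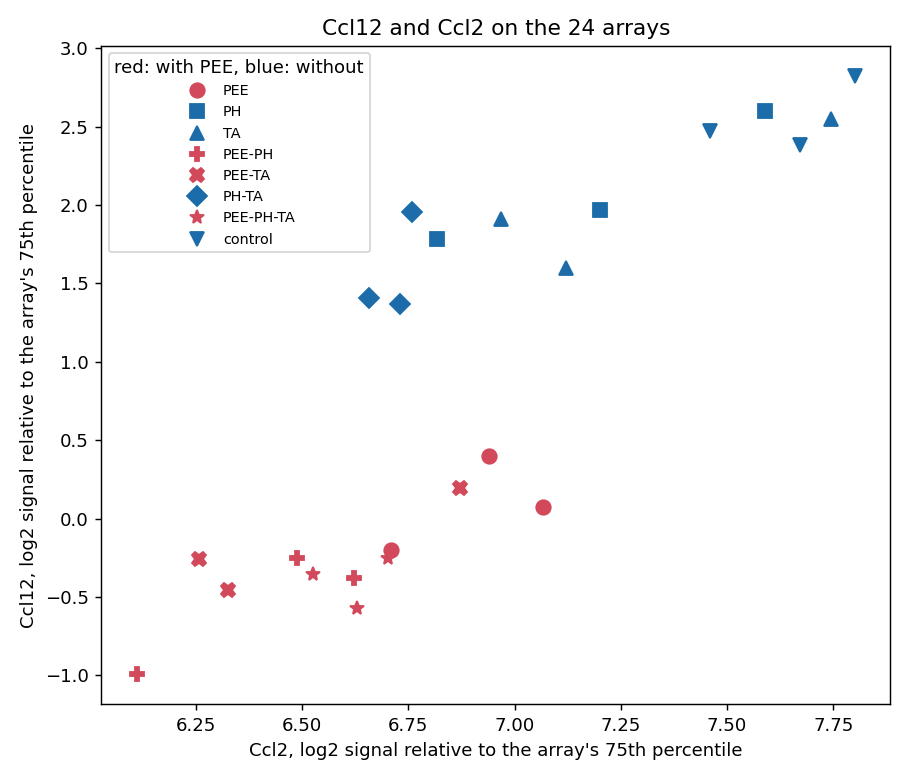
Level of Ccl12 (vertical axis) against Ccl2 (horizontal axis) on the 24 arrays, both as log2 signal relative to the array's 75th percentile, with 1 symbol per group, red with PEE and blue without. At like levels of Ccl2, for example in PEE and PH-TA, the arrays with PEE have the lower Ccl12, and the difference of the levels does not overlap.

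Likeness of pattern was ranked over named genes only, without gene models, clones or entries named by accession. The patterns most like that of Ccl12 were those of Slc13a3, which encodes a sodium-coupled dicarboxylate transporter (r = 0.98), Penk, which encodes proenkephalin (r = 0.97), and Dkkl1 (r = 0.96). For Ccl8 they were Slfn2, Pilra and Il15 (r = 0.94, 0.94 and 0.93), and for Ccl11 Themis2, Ccl17 and Slamf9 (r = 0.91 each). Ccl2 and Ccl7 were each most like the other (r = 0.99) and then Ifi204, an interferon-induced gene (r = 0.95 for both), followed by Cxcl5 for Ccl2 and Trip13 for Ccl7 (r = 0.94 each). Ccl3 and Ccl4 were each most like the other (r = 0.96). Ccl3 was next like Il1b and Bcl2a1d (r = 0.93 and 0.91), and Ccl4 like Scimp and Gpr84 (r = 0.92 each). For Ccl5 the genes were B2m, Scin and Slamf8 (r = 0.89, 0.88 and 0.86), for Ccl20 Alox12, Sprr2a3 and Tagln2 (r = 0.83, 0.82 and 0.81), and for Ccl21a H2-Eb1, Cd180 and Ctss (r = 0.83, 0.78 and 0.78). These correlations describe 24 arrays that share 8 groups.

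Of 13 further CC chemokine genes 9 were measured. In PEE-PH-TA against control, where 8.72% of all genes fell, 3 of these did by limma: the CCR4 ligand Ccl17 (-1.63 ± 0.21, adjusted p = 4.32e-05), the further eotaxin Ccl24 (-1.29 ± 0.30, adjusted p = 0.00592) and Ccl6 (-1.22 ± 0.23, adjusted p = 0.00119). In the average effect of PEE, where 14.2% of all genes fell and 12.8% rose, 4 fell, among them Ccl24 (-1.27 ± 0.15, adjusted p = 4.43e-06), Ccl17 (-1.12 ± 0.10, adjusted p = 2.48e-07) and Ccl6 (-0.63 ± 0.11, adjusted p = 0.000349), and Ccl25 rose (0.33 ± 0.05, adjusted p = 1.88e-05; limma). Of 11 receptor genes 6 were measured, while Ccr1 was well above background on 0, Ccr6 on 2 and Ccr3 on 6 of the 24 arrays. Ccr8, the receptor of mouse Ccl8, rose in PEE-PH-TA (0.71 ± 0.23, adjusted p = 0.046) and in the average effect of PEE (0.52 ± 0.12, adjusted p = 0.00241; limma). Ccr2, the receptor of Ccl2, Ccl7 and Ccl12, was well above background on 0 of the 12 arrays with PEE and on 7 of the 12 without. These were 3 of PH, 2 of TA, 1 of PH-TA and 1 of control, so no size of change is given. Ccr2 passed the filter on dim probes only through PH, so these counts are no test of PEE. Ackr4, an atypical receptor that takes up CCR7 ligands, rose in PEE-PH-TA (1.35 ± 0.22, adjusted p = 0.000431), the only 1 of 4 atypical receptors to do so (limma), where 7.78% of all genes rose. In the average effect of PEE 0 of the 4 rose or fell. Ackr4 did rise in the average effects of PH (0.93 ± 0.11, adjusted p = 2.26e-05) and TA (0.46 ± 0.11, adjusted p = 0.0189) by limma.

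Pathways known to induce chemokine genes were counted in the same way. In PEE-PH-TA against control, 1 of 14 NF-kB pathway genes fell and 0 rose, a share near the 8.72% of all genes that fell: Tnfaip3, a target and brake of NF-kB, at -0.64 ± 0.15 (adjusted p = 0.00707, limma). The median of the 14 was -0.19. Of 18 interferon and STAT genes 7 fell and 0 rose there, with a median of -0.08. Irf7, which encodes an interferon regulatory factor, differed by -1.88 ± 0.32 (adjusted p = 0.000639; limma). Ifnb1, the interferon beta gene and 1 of the 7, was well above background on 1 of 3 arrays of PEE-PH-TA. It was so on 2 of 3 in PEE, 1 in PEE-TA, 0 in PEE-PH, and all 3 in PH, TA, PH-TA and control, so its size of change in PEE-PH-TA is not given. Ifnb1 passed the filter on dim probes only through the groups without PEE, so its count among the 7 is no test of a fall. Of 15 Toll-like receptor and cytokine inputs measured, 2 fell and 1 rose, against 8.72% and 7.78% of all genes. They were Tlr3 (-1.15 ± 0.24, adjusted p = 0.00295) and Tnf (-0.76 ± 0.23, adjusted p = 0.0301), which fell, and Tnfrsf1a, which rose (0.29 ± 0.06, adjusted p = 0.00175; limma). In the average effect of PEE, where 14.2% of all genes fell and 12.8% rose, 3 of 14 NF-kB genes fell and 0 rose. Of the 18 interferon and STAT genes 6 fell and 1 rose there, and of the 15 inputs 2 fell and 1 rose. Against control 5 of the 18 fell in PEE (5.69% of all genes), 1 in PH (3.65%) and 0 in TA (1.43%). In PEE-PH 6 fell (20.9%), in PEE-TA 6 (15.3%) and in PH-TA 6 (17.5%). In PEE-PH 1 of the 18 rose (14.9%).

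Markers of cells that make or answer chemokines were counted in the same way, against control unless an average effect is named. Of 15 macrophage markers 4 fell and 2 rose in PEE, where 5.69% of all genes fell and 5.2% rose. In the other groups 2 fell in PH (3.65% of all genes), 0 in TA (1.43%) and 7 in PEE-PH (20.9%). In PEE-TA 6 fell (15.3%), in PH-TA 5 (17.5%) and in PEE-PH-TA 6 (8.72%). In PEE-PH-TA, where 8.72% of all genes fell, 0 macrophage markers rose and the median was -0.21, led by Fcgr1 (-1.34 ± 0.21, adjusted p = 0.000346), Aif1 (-0.90 ± 0.11, adjusted p = 2.18e-05) and C1qa (-0.76 ± 0.17, adjusted p = 0.00431; limma). The summed signal of the 15, in units of the 75th percentile, was 73.8 to 85.7 in PEE, 53.4 to 70.0 in PH, 59.0 to 62.8 in TA, 54.5 to 62.7 in PEE-PH, 55.5 to 60.8 in PEE-TA, 50.9 to 58.6 in PH-TA, 55.7 to 67.7 in PEE-PH-TA and 62.2 to 77.4 in control. In the average effect of PEE 7 macrophage markers fell and 3 rose (Lyz2, Cd68 and Tyrobp), against 14.2% and 12.8% of all genes. In that of PH 7 fell and 0 rose, where 17.4% of all genes fell. In that of TA 1 fell and 0 rose, where 5.2% of all genes fell. Cd163, which marks resident macrophages, was well above background on 3 of 24 arrays. It passed the filter on dim probes through 1 group alone, and the counts, median and sums of the 15 include it.

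Of 7 blood endothelial markers 6 rose in PEE, where 5.2% of all genes rose, 5 in PEE-PH (14.9% of all genes), 6 in PEE-TA (10.2%), 5 in PH-TA (12.1%) and 3 in PEE-PH-TA (7.78%), while 0 rose in PH (1.6%) or TA (0.399%). In the average effect of PEE 3 rose, against 12.8% of all genes. Their sum was 10.5 to 12.1 in PEE, 6.88 to 9.36 in PH, 8.56 to 10.2 in TA, 11 to 13 in PEE-PH, 8.87 to 12.4 in PEE-TA, 9.60 to 14.7 in PH-TA, 8.72 to 10.5 in PEE-PH-TA and 6.73 to 7.81 in control. Of 6 lymphatic endothelial markers 0 passed in PEE-PH-TA, and 2 rose in the average effect of PEE.

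With single compounds 5.69% of all genes fell in PEE, 3.65% in PH and 1.43% in TA. With mixtures 20.9% fell in PEE-PH, 15.3% in PEE-TA, 17.5% in PH-TA and 8.72% in PEE-PH-TA. In the average effects 14.2% fell with PEE and 17.4% with PH. Of all genes 5.2% rose in PEE, 14.9% in PEE-PH, 10.2% in PEE-TA, 12.1% in PH-TA and 12.8% in the average effect of PEE. Of 10 mast cell markers 7 were measured. Of these 1 fell in PEE, 0 in PH, 0 in TA, 6 in PEE-PH, 3 in PEE-TA, 6 in PH-TA and 4 in PEE-PH-TA. In each of PEE-PH, PEE-TA and PH-TA 1 rose. The mast cell sum was 21.2 to 24.8 in PEE, 14.4 to 28.0 in PH, 19.4 to 25.7 in TA and 24.2 to 40.0 in control. In mixtures it was 17.6 to 22.2 in PEE-PH, 18.5 to 24.5 in PEE-TA, 14.3 to 20.8 in PH-TA and 15.6 to 24.3 in PEE-PH-TA. In the average effect of PEE 1 fell and 1 rose, and in that of PH 4 fell and 0 rose. Of 8 Langerhans and dendritic cell markers 0 fell and 1 rose in PEE. In the other groups 0 fell in PH, 0 in TA, 3 in PEE-PH, 2 in PEE-TA, 3 in PH-TA and 4 in PEE-PH-TA. Their sum was 14.5 to 16.0 in PEE, 14.0 to 17.5 in PH, 14.9 to 16.4 in TA and 16.0 to 18.3 in control. In mixtures it was 13.1 to 14.6 in PEE-PH, 14.3 to 15.1 in PEE-TA, 12.4 to 15.5 in PH-TA and 12.6 to 13.9 in PEE-PH-TA. Of 8 neutrophil markers 0 fell in PEE, 2 in PH, 0 in TA, 5 in PEE-PH, 4 in PEE-TA, 4 in PH-TA and 2 in PEE-PH-TA. The neutrophil sum was 58.0 to 75.8 in PEE, 60.6 to 71.2 in PH, 56.4 to 71.8 in TA and 66.4 to 82.6 in control. In mixtures it was 41.6 to 49.8 in PEE-PH, 46.3 to 60.2 in PEE-TA, 40.9 to 53.7 in PH-TA and 51.3 to 58.5 in PEE-PH-TA. In the average effect of PEE 2 Langerhans and dendritic cell markers fell and 1 rose, and 4 neutrophil markers fell and 2 rose. In that of PH 5 Langerhans and dendritic cell markers and 2 neutrophil markers fell, and 0 of either rose. Of 6 T and natural killer cell markers measured 2 fell in PEE-PH, 1 in PH-TA, 1 in PEE-PH-TA and 0 in the other groups. In the average effect of PEE 2 of them fell and in that of PH 3. Gzmb was above background on 0 of 24 arrays.

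Of 8 outer root sheath markers 3 fell in PEE (5.69% of all genes), 3 in PEE-PH (20.9%) and 3 in PEE-TA (15.3%). In PH-TA 2 fell (17.5%) and in PEE-PH-TA 2 (8.72%). Those that rose were 1 in PH (1.6% of all genes), 1 in TA (0.399%), 1 in PEE-TA (10.2%) and 4 in PH-TA (12.1%). Of the same 8, 6 fell in the average effect of PEE, where 14.2% of all genes fell. Of 12 hair matrix, shaft and inner root sheath markers 3 rose in PH (1.6% of all genes) and 3 in TA (0.399%). In PEE-PH 8 rose (14.9%), in PEE-TA 8 (10.2%), in PH-TA 9 (12.1%) and in PEE-PH-TA 6 (7.78%). In PEE-PH and in PEE-PH-TA 1 fell. In PEE and in the average effect of PEE 0 rose and 1 fell. In the average effects of PH and TA 10 rose and 0 fell in each, where 3059 and 614 of the 22065 genes rose. Of 10 dermal papilla and fibroblast markers measured 2 fell in PEE (5.69% of all genes), 2 in PEE-PH (20.9%) and 2 in PEE-TA (15.3%). In PEE-PH-TA 2 fell (8.72%) and in PH-TA 1 (17.5%). Of the same 10, 1 rose in PEE (5.2% of all genes), 1 in TA (0.399%), 1 in PEE-PH (14.9%), 2 in PEE-TA (10.2%) and 3 in PH-TA (12.1%). In the average effect of PEE 3 fell and 0 rose, where 14.2% of all genes fell and 12.8% rose. The part of these cells in the chemokine results was not tested.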

How the data were processed

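RNA of 24 samples was hybridised to 24 one-colour Agilent arrays. The deposited scans hold spot intensity values that the authors extracted with Agilent Feature Extraction 12.0.3.1, background-subtracted per the file headers. The label names biotin, while the scans hold a green channel. The authors also deposited log2 values, with column medians of 3.97 to 4.05, whose centring is not given in the sources used here. Of its 24 columns 23 matched their own scan best (r = 0.989 to 0.993), and 24 of 24 did after centring genes (r = 0.896 to 0.955), a check chosen after seeing the first result.

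Here the value was log2 of the processed signal minus log2 of the array's 75th percentile of it, with no pseudocount. Of 56605 probes, 33340 were well above background on all 3 arrays of at least 1 group, and the brightest probe stood for a gene, giving 22065 genes or transcripts. Models were fitted with limma 3.58.1 in R 4.3.3, with 1 mean per group over all 24 arrays, and p-values were adjusted by the Benjamini-Hochberg method within each comparison, with 0.05 as the threshold. The fit was tested on simulated data. The number of arrays limits the precision. Figures were drawn with matplotlib 3.10.9.

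All 10 members are named, with further genes from lists by size of change among those past the threshold. The 3 named genes most alike in pattern are given, with gene models, clones and accession entries left out. Of the list genes, 1 is not reported by name here, and 2 dim ones, Ifnb1 and Ccr2, are given by detection only. The members and lists were chosen with earlier results of these data known. Replicate number, slide and scan coincide. Same-numbered deviations of treated and control arrays correlated at -0.0858 to 0.312, over 0.1 in 12 of 21 pairs. The main fit did not take the number as pairing, and the replicate block was fitted as an alternative. Alternatives were quantile normalization, normexp background with offset 50, the authors' values, no filter, the mean of all probes of a gene, the replicate block, a trended and robust prior, only the groups compared, and leaving out arrays or replicate numbers. The array-signal covariate was added after the data were seen.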

Additional observations from a re-analysis of the deposited data

How the results depend on the processing

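Of the 66 calls on the 10 genes in 13 comparisons, 2 were lost with quantile normalization, 0 with normexp background, 4 with the authors' values, 5 with no filter on dim probes, 1 with the mean of a gene's probes, 3 with the replicate block, 2 with a trended and robust prior, 11 of 50 with only the groups compared and 28 with the array-signal covariate, and none of these reversed a called value. Of the 66, 42 held without each array in turn and 27 without each replicate number. The calls lost with the block were Ccl11 in TA (adjusted p = 0.0529), Ccl3 in the average effect of TA (0.0538) and Ccl4 in PEE-TA against TA (0.0583), and it gained Ccl21a in PEE-PH-TA. The cause of the lost calls was not tested. The number of genes called in the average effect of TA was 5 with normexp, 4 with no filter, and 1 each with the replicate block and the trended prior. In TA against control it was 0 with the authors' values, with no filter, with the replicate block and with only the groups compared. In PH against control it was 1 with no filter and 0 with only the groups compared. With only the groups compared it was 2 in PEE-PH against PH, 2 in PEE-TA against TA and 1 in PEE-PH-TA against PH-TA. With the covariate it was 0 in PH, TA and PH-TA against control and in the average effects of PH and TA, 5 in PEE-PH against control, 2 in PEE-PH against PH and 1 in PEE-PH-TA against PH-TA.

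With an array or replicate number left out, the number called ran from 2 to 5 in PEE, 0 to 2 in PH, 0 to 0 in TA, 5 to 8 in PEE-PH, 4 to 7 in PEE-TA, 4 to 8 in PH-TA and 3 to 8 in PEE-PH-TA, each against control. It ran from 7 to 9 in the average effect of PEE, 1 to 7 in that of PH and 0 to 5 in that of TA, from 1 to 7 in PEE-PH against PH, 1 to 6 in PEE-TA against TA and 1 to 2 in PEE-PH-TA against PH-TA, and was 0 for the departures from sums. Values that were not called turned sign, and not all of them were near 0 in the main fit. There the average effect of PH was -0.36 on Ccl3 and -0.37 on Ccl4. Ccl5 in PH was 0.00085 with quantile normalization and 0.0276 with the authors' values. With the covariate Ccl4 in PH was 0.0043, Ccl20 in TA 0.0436, Ccl20 in PH-TA 0.289 and Ccl21a in PH-TA 0.114, and the average effect of PH was 0.192 on Ccl3, 0.0925 on Ccl4 and 0.193 on Ccl20, and that of TA 0.186 on Ccl21a. With arrays or replicate numbers left out, against control Ccl5 in PEE ran from -0.80 to 0.0222, Ccl4 in PH from -0.75 to 0.15, Ccl5 in PH from -0.24 to 0.11, Ccl20 in PH from -0.18 to 0.27, Ccl4 in TA from -1.04 to 0.15, Ccl20 in TA from -0.23 to 0.0414 and Ccl20 in PH-TA from -0.56 to 0.16. The average effect of PH on Ccl20 ran from -0.23 to 0.0739 and that of TA from -0.0284 to 0.15. In PEE-TA against TA Ccl5 ran from -0.39 to 0.15 and Ccl21a from -0.85 to 0.22, and in PEE-PH-TA against PH-TA Ccl20 ran from -0.54 to 0.20. Of 40 departures from sums 30 turned sign under some alternative, as did 16 of 130 other values. With no filter the median of all genes moved to 0.12 in PEE and -0.20 in PH-TA. The test of PEE with PH and TA present against PEE alone was not recomputed under the alternatives.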
